A study of Homo sapiens with 11 samples.

Results

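PAEP, DEPP1, DYSF, NAT16, HES2 and SLCO4A1-AS1 are 6 genes that were lower in tumors treated with PLX4720. They were chosen because they read low under that drug while not being among the textbook hypoxia-induced genes. They are 6 of 20046 genes with a probe and of 14886 genes with a detected one, and all 8 probes annotated to them were kept. DEPP1 is the present symbol of C10orf10. PAEP and DEPP1 were chosen by their intensities in PLX4720 against vehicle. For the other 4 genes the arrays of COMBO may have entered the choice as well.

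The tumors grew from the human melanoma cell line A375, which carries a mutant BRAF kinase, under the skin of female CD1 athymic mice that were 6 weeks old at implantation. Treatment lasted 12 days. The COMBO arm (2 arrays) received PLX4720, an inhibitor of mutant BRAF, at 60 mg/kg by gavage and bevacizumab, an antibody against human VEGF, at 10 mg/kg by injection, and the study asked what the pair does beyond each drug alone. The PLX4720 arm (3 arrays) and the bevacizumab arm (3 arrays) received 1 of these drugs at the same dose. The vehicle arm (3 arrays) received matching volumes of the vehicles. By the study's methods PLX4720 was dissolved in methylcellulose and bevacizumab was diluted in saline. All 4 arms rest on 1 cell line, in a host without T cells whose stroma, vessels and macrophages are of mouse origin. The arrays carry probes for human transcripts, so mouse RNA can enter only where a human probe binds it.

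PAEP encodes glycodelin, a secreted glycoprotein of the lipocalin family that the endometrium makes under progesterone. DEPP1 was named for its induction by progesterone in the decidua and is known as a target of the FOXO transcription factors. DYSF encodes dysferlin, a ferlin that helps to reseal the plasma membrane, best known in skeletal muscle. NAT16 belongs to the N-acetyltransferase family, and HES2 to the HES family of basic helix-loop-helix repressors, several of which act downstream of Notch. SLCO4A1-AS1 is a long noncoding RNA that lies antisense to SLCO4A1, a transporter of organic anions. Hypoxia works through HIF factors, which bind a short core in the promoters of glycolytic, angiogenic and other genes.

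All 6 promoters were found in RefSeq (GRCh38.p14, 250 bases before to 50 bases after the start). They were searched on both strands for the core of the hypoxia response element (ACGTG or GCGTG), the E-box CACGTG, the M-box TCATGTG bound by MITF, the FOXO site GTAAACA, the AP-1 site TGANTCA and the progesterone receptor core TGTTCT. The 4 promoters with a match are shown from base -200 to base -81 relative to the start, in the direction of transcription, with the matches in capitals. PAEP lies on the plus strand at chr9:135561556-135561675, DEPP1 on the minus strand at chr10:44978890-44979009, NAT16 on the minus strand at chr7:101179317-101179436 and SLCO4A1-AS1 on the minus strand at chr20:62666702-62666821.
PAEP: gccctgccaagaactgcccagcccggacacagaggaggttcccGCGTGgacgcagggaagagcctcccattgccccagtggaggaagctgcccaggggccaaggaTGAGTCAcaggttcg
DEPP1: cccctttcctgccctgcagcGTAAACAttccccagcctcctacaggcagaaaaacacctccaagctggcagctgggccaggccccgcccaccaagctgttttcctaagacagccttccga
NAT16: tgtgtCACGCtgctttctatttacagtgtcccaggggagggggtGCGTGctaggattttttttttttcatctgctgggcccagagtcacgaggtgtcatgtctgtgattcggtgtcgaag
SLCO4A1-AS1: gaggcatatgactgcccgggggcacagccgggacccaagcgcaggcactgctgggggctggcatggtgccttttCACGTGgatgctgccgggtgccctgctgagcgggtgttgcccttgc

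The core of the hypoxia response element occurred in 3 of the 6 promoters, against 48.4% of 35116 promoters of the same length. In PAEP it began at base -157, in NAT16 at bases -195 (minus strand) and -156, and in SLCO4A1-AS1 at bases -126 and -125 on opposite strands of 1 E-box. That E-box was the only one among the 6 promoters, and 7.26% of all promoters held one. The FOXO site occurred in DEPP1 alone, at base -180, against 3.42% of all promoters. The AP-1 site occurred in PAEP alone, at base -95, against 7.71%. No M-box (2.92% of all promoters) and no progesterone receptor core (14.8%) was found in the 6 windows, and DYSF and HES2 had no match of any kind. The GC content of the 6 windows ran over 57.3% in DEPP1, 58.7% in DYSF, 59.7% in NAT16, 64.7% in SLCO4A1-AS1, 67.0% in PAEP and 75.7% in HES2, where all promoters had a median of 58.7% and quartiles of 47.0% and 68.0%. No sequence among those searched occurred in all 6 windows. A match of letters does not show that a factor binds there.

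Between 19767 and 21952 of 47323 probes per array were detected, which means that the detection p-value set against the negative control beads was below 0.05. Arrays correlated within their arm at 0.987 for COMBO, 0.926 to 0.941 for PLX4720, 0.957 to 0.988 for bevacizumab and 0.988 to 0.989 for vehicle, so the PLX4720 arrays were the least alike. Within their arms PLX4720 3 and bevacizumab 1 correlated least with the others. Of 7 melanocyte markers, MITF and SOX10 were detected on every array and PMEL on 1 PLX4720 array, while MLANA, TYR and S100B were on none and DCT had no probe here. By this short list the tumors carried the lineage factors MITF and SOX10 without most of the other markers. A longer list of pigment and MITF target genes had 14 measured. Of these, 10 were detected on all arrays of the PLX4720 arm and 10 on all of COMBO. In bevacizumab and in vehicle tumors 11 were detected on all arrays of the arm. Levels below are log2 normalized intensities of 1 probe per gene, so they compare arms within a gene and not genes with each other. In whole tumors, fewer cells that express a gene and less of its RNA per cell cannot be told apart.

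**Figure D1:**
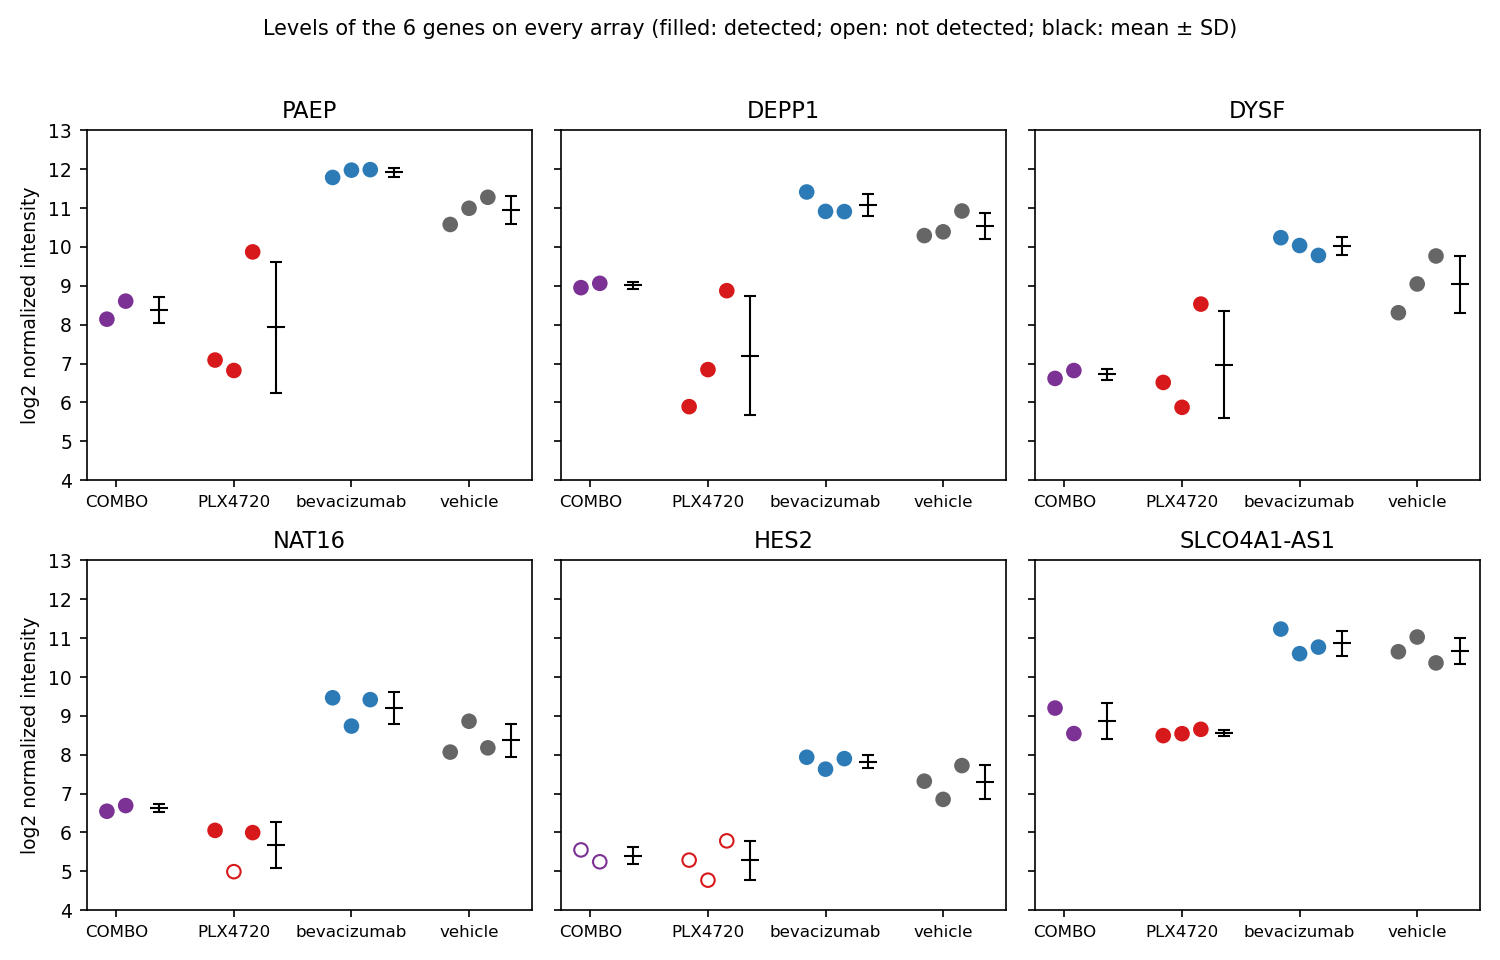
Log2 normalized intensity of the 6 genes on each of the 11 arrays, with 1 point per array, in COMBO, PLX4720, bevacizumab and vehicle tumors. Filled points were detected and open points were not, and black marks give the mean ± SD. HES2 was detected on 0 of 3 PLX4720 and 0 of 2 COMBO arrays, and in all 6 genes the COMBO arrays lay below the bevacizumab arrays.

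PAEP and DEPP1 were detected on every array and read lower in PLX4720 than in vehicle tumors. PAEP read 7.09, 6.82 and 9.87 on the 3 PLX4720 arrays, against 10.58, 10.996 and 11.28 on the 3 vehicle arrays. The mean difference was -3.02 ± 0.63 (SE), or 8.13-fold. In the authors' cubic spline normalized intensities it was smaller, at -2.27. The PLX4720 arrays all lay below vehicle, but PLX4720 3 lay only 0.71 below the lowest vehicle array. In tumors that also received bevacizumab, PAEP read 8.14 and 8.61 on the COMBO arrays, against 11.79, 11.98 and 11.99 on the bevacizumab arrays. The arms were separated by a gap of 3.18, and the difference was -3.54 ± 0.70, or 11.7-fold (-2.95 in the authors' normalized intensities).

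A second PAEP probe gave the same order of arms. It averaged 7.97 ± 0.22 in COMBO (SD, n = 2), 7.91 ± 1.60 in PLX4720, 11.34 ± 0.15 in bevacizumab and 10.28 ± 0.31 in vehicle tumors (SD, n = 3 each). Its differences were -2.37 ± 0.60 for PLX4720 against vehicle and -3.37 ± 0.67 for COMBO against bevacizumab. Both probes were detected on all 11 arrays.

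DEPP1 read 5.89, 6.84 and 8.88 on the PLX4720 arrays, against 10.29, 10.39 and 10.93 on the vehicle arrays. The difference was -3.33 ± 0.58, or 10.1-fold, with a gap of 1.42 between the arms. In the authors' normalized intensities it was smaller, at -2.37. DEPP1 was near background on PLX4720 1 (detection p-value 0.031), which limits that fold. With bevacizumab present it read 8.95 and 9.06 on the COMBO arrays, against 11.42, 10.92 and 10.91 on the bevacizumab arrays. That difference was -2.07 ± 0.65, or 4.20-fold (-1.725 in the authors' normalized intensities). DEPP1 was the gene whose COMBO level lay farthest above its PLX4720 level, by 1.81 (95% interval 0.38 to 3.23), although the highest PLX4720 array came within 0.08 of the lower COMBO array.

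DYSF was the only gene of the 6 whose PLX4720 and vehicle arrays overlapped. It read 6.51, 5.87 and 8.53 on the PLX4720 arrays, against 8.31, 9.05 and 9.77 on the vehicle arrays. PLX4720 3 lay 0.22 above the lowest vehicle array, so these arms overlapped. The difference was -2.07 ± 0.58, or 4.20-fold, and -1.31 in the authors' normalized intensities. DYSF was near background on PLX4720 2 (detection p-value 0.026), which limits that fold. The COMBO arrays at 6.62 and 6.82 lay well below the bevacizumab arrays at 10.24, 10.04 and 9.78. There the difference was -3.30 ± 0.65, or 9.86-fold, and -2.27 in the authors' normalized intensities. The other ferlin of wide expression, MYOF, did not pass the test in PLX4720 against vehicle (-0.36 ± 0.40, adjusted p = 0.718, limma).

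NAT16 read 6.05, 4.99 and 6.00 on the PLX4720 arrays, of which the second was not detected, against 8.07, 8.86 and 8.18 on the vehicle arrays. The difference was -2.69 ± 0.34, and -1.49 without background correction. As the probe was at or near background under PLX4720, no fold is given. On the COMBO arrays it read 6.55 and 6.69, against 9.47, 8.74 and 9.42 on the bevacizumab arrays. That difference was -2.59 ± 0.38, or 6.01-fold (-1.68 in the authors' normalized intensities). Gaps of 2.01 and 2.04 separated the arms, with no array between them.

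HES2 was below detection wherever PLX4720 was given. Its main probe read 5.29, 4.77 and 5.78 on the PLX4720 arrays, none of them detected, against 7.32, 6.85 and 7.72 on the vehicle arrays. With bevacizumab it read 5.55 and 5.25 on the COMBO arrays, neither detected, against 7.94, 7.63 and 7.90 on the bevacizumab arrays. By the main probe after background correction, HES2 was therefore at least 2.84-fold lower in PLX4720 than in vehicle tumors. In COMBO it was at least 4.37-fold lower than in bevacizumab tumors. Without background correction the 2 differences of this probe were smaller, at -0.98 and -1.19. The bounds set the brighter arm against the dimmest detected probe of each array, or against the probe itself where it was higher. They were computed on background-corrected intensities, as were the bounds given for other genes below. A second HES2 probe was dimmer, at 5.19 in COMBO and 4.92 in PLX4720 tumors (none detected), 6.50 in bevacizumab tumors (all detected) and 5.65 in vehicle tumors (2 of 3 detected). That probe differed by -0.73 ± 0.28 in PLX4720 against vehicle and by -1.31 ± 0.31 in COMBO against bevacizumab.

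SLCO4A1-AS1 had the smallest standard error of the 6 in PLX4720 against vehicle. It read 8.49, 8.54 and 8.65 on the PLX4720 arrays, against 10.65, 11.03 and 10.36 on the vehicle arrays. The difference was -2.12 ± 0.26, or 4.34-fold (-1.70 in the authors' normalized intensities). It read 9.20 and 8.55 on the COMBO arrays, against 11.23, 10.60 and 10.77 on the bevacizumab arrays. That was a difference of -1.995 ± 0.30, or 3.99-fold (-1.63 in the authors' normalized intensities). All arrays with PLX4720 lay at or below 9.20 and all arrays without it at or above 10.36.

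Because PLX4720 against vehicle was the basis of the choice, its values are a description. In that comparison 5 of the 6 genes passed an adjusted p of 0.05 (limma, all genes), where 0.853% of all genes tested were called lower, and 5 of the 6 had no overlap between arms, where 9.03% of all genes lay lower with no overlap. PAEP lost its call in 8 of the 11 fits with 1 array left out (highest adjusted p = 0.164), holding it only without PLX4720 2, PLX4720 3 or bevacizumab 1. DEPP1 lost it without vehicle 1, vehicle 2 or vehicle 3 (highest adjusted p = 0.102) and HES2 without vehicle 3 (0.0505). DYSF, not called with all arrays (adjusted p = 0.101), was called without PLX4720 3 (0.00323). Nothing is read from these counts. For COMBO against bevacizumab all 6 had no overlap, where 14.4% of all genes did, and 3 were called (HES2, NAT16 and SLCO4A1-AS1), where 0.128% of all genes were called lower. As these 3 may owe their choice to the COMBO arrays, nothing is read from their calls either. DYSF (adjusted p = 0.0727) was called there without PLX4720 2 (0.0279) or PLX4720 3 (0.00473).

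For PAEP and DEPP1 the comparison that made the choice did not use the COMBO and bevacizumab arrays. COMBO against bevacizumab was therefore tested for them on other tumors. That test was not fully separate from the choice. It shared its estimate of the spread with the PLX4720 and vehicle arrays, and earlier results of these data were known. Neither gene was called. PAEP had an adjusted p of 0.0754 (limma, Benjamini-Hochberg over 14886 genes), lower on 2 of 2 COMBO arrays than on every bevacizumab array. DEPP1 had an adjusted p of 0.334, also lower on 2 of 2. The spread was estimated over all arms. Without PLX4720 3 the adjusted p became 0.000307 for PAEP and 0.0165 for DEPP1, at unchanged differences. Without PLX4720 2 it became 0.0372 for PAEP. Over the 23 other settings tried the adjusted p ran from 0.000143 to 0.438 for PAEP and from 0.00313 to 1 for DEPP1, and the difference stayed below 0 for both.

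**Figure D2:**
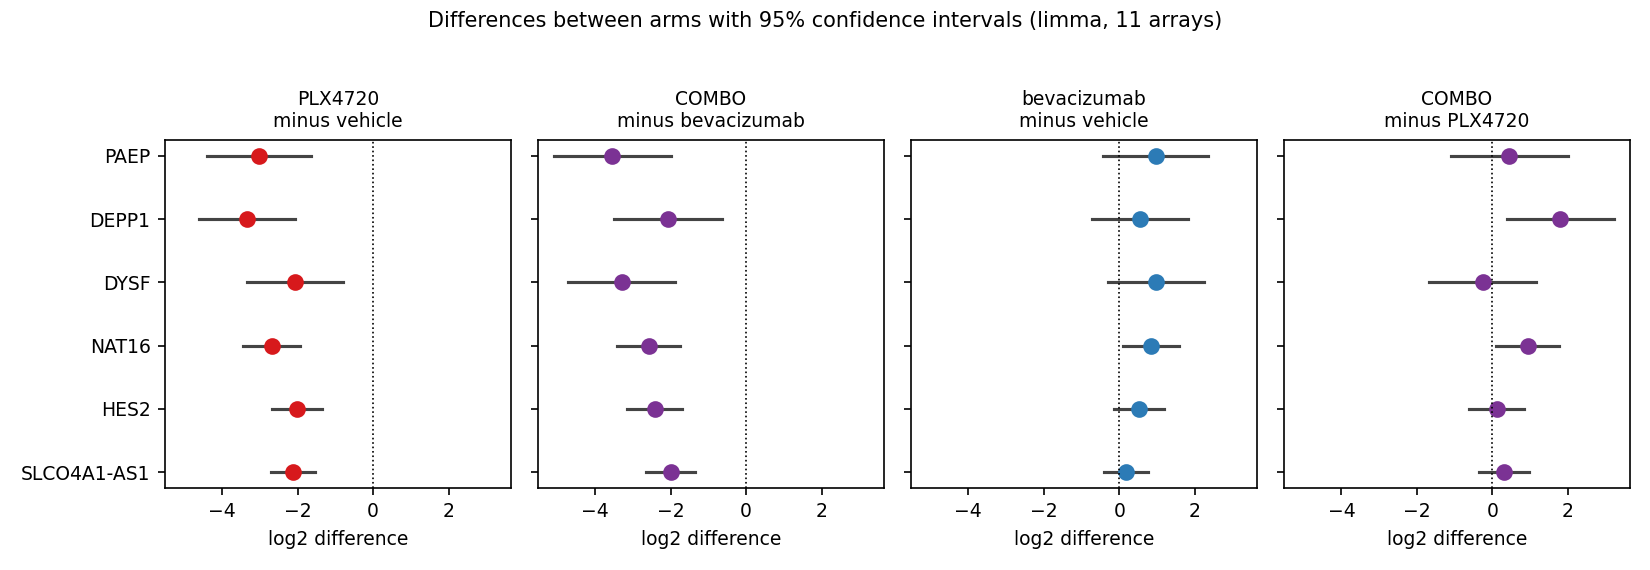
Log2 differences of the 6 genes (points) with 95% confidence intervals (lines) in 4 comparisons, from the fit over 11 arrays. All 6 lie below 0 in PLX4720 minus vehicle and in COMBO minus bevacizumab, and all 6 lie above 0 in bevacizumab minus vehicle, where 1 interval (NAT16) leaves out 0.

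None of the 6 read lower under bevacizumab alone. The bevacizumab mean lay above the vehicle mean for every gene, by 0.98 ± 0.58 for DYSF, 0.97 ± 0.63 for PAEP, 0.84 ± 0.34 for NAT16, 0.54 ± 0.58 for DEPP1, 0.53 ± 0.30 for HES2 and 0.19 ± 0.26 for SLCO4A1-AS1. The 95% interval left out 0 for NAT16 (0.09 to 1.59) and held it for the other 5. The bevacizumab arrays of PAEP all lay above the vehicle arrays, with a gap of 0.51, and those of DYSF did so by 0.02. For the other 4 genes the arms overlapped. Over all genes limma called none in bevacizumab against vehicle. An unadjusted p below 0.05 was found for 353 of 14886, a share smaller than 0.05 itself. The vehicle arrays had also served to choose the genes, so these differences carry no test.

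The interval of COMBO against PLX4720 held 0 for 4 of the 6. The COMBO mean minus the PLX4720 mean was -0.25 for DYSF (95% interval -1.67 to 1.17), 0.12 for HES2 (-0.62 to 0.85), 0.31 for SLCO4A1-AS1 (-0.34 to 0.96) and 0.45 for PAEP (-1.10 to 1.997). The intervals of PAEP and DYSF allow a difference of over 1 in size. Their width rests on a spread estimated over all arms and on 2 COMBO arrays. The PLX4720 arrays had the largest SD of any arm, at 1.69 for PAEP and 1.39 for DYSF, and the vehicle arrays of DYSF had 0.73. NAT16 was higher in COMBO by 0.94 (0.10 to 1.78), and both COMBO arrays lay above all 3 PLX4720 arrays. The PLX4720 arrays had chosen the genes for their low values there, which for PAEP and DEPP1 favours a COMBO mean above the PLX4720 mean. For the other 4 genes the COMBO arrays may have entered the choice as well, so the direction is not known. These differences too carry no test. Without PLX4720 3 the difference became 1.42 for PAEP, 2.64 for DEPP1 and 0.53 for DYSF. Over all genes neither DEPP1 (adjusted p = 0.647, limma) nor NAT16 (0.672) was called.

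COMBO against vehicle gave negative differences for all 6. They were -2.58 ± 0.70 for PAEP, -2.32 ± 0.65 for DYSF, -1.90 ± 0.33 for HES2, -1.81 ± 0.30 for SLCO4A1-AS1, -1.75 ± 0.38 for NAT16 and -1.53 ± 0.65 for DEPP1, and no COMBO array reached the lowest vehicle array. This comparison shares the vehicle arrays with PLX4720 against vehicle. The effect of PLX4720 with bevacizumab minus its effect without it was 1.26 for DEPP1 (95% interval -0.65 to 3.17), 0.12 for SLCO4A1-AS1 (-0.75 to 1.00), 0.10 for NAT16 (-1.02 to 1.23), -0.41 for HES2 (-1.40 to 0.58), -0.52 for PAEP (-2.60 to 1.56) and -1.23 for DYSF (-3.14 to 0.67). All 6 intervals held 0 and were wide, so a change of the PLX4720 effect by bevacizumab was not detectable with these arrays. The PLX4720 and vehicle arrays that served to choose the genes enter this quantity as well.

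The 3 PLX4720 arrays differed among themselves. PLX4720 3 lay above the mean of PLX4720 1 and 2 by 2.92 for PAEP, 2.51 for DEPP1 and 2.34 for DYSF. For HES2 the distance was 0.75, for NAT16 0.47 and for SLCO4A1-AS1 0.14. Over all genes this distance had a median of -0.08 and ran between -1.28 and 1.56 from the 5th to the 95th percentile. PAEP, DEPP1 and DYSF thus lay beyond the upper end and the other 3 within it. The median of the hypoxia-induced list was -1.11, -1.33 and -1.08 on PLX4720 1, 2 and 3 relative to the vehicle mean. Single members of that list could still lie higher on PLX4720 3, as NDRG1 did at -2.10, -2.59 and -1.015 and ENO2 at -0.85, -2.59 and -0.39 relative to their own means over the 11 arrays. Without PLX4720 3 the difference in PLX4720 against vehicle became -4.00 for PAEP, -4.17 for DEPP1 and -2.85 for DYSF.

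**Figure D3:**
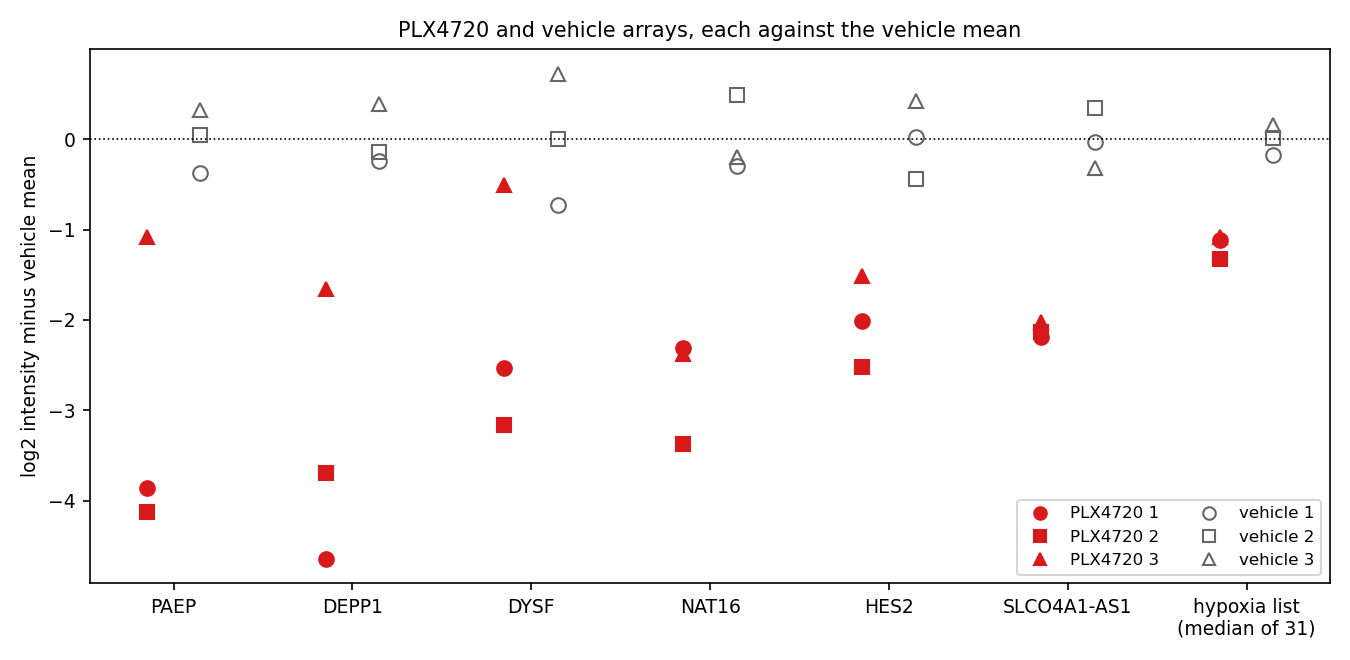
Log2 intensity of each PLX4720 array (filled) and each vehicle array (open) minus the vehicle mean, for the 6 genes and for the median of 31 hypoxia-induced genes. PLX4720 3 (triangle) stands above PLX4720 1 and 2 for PAEP, DEPP1 and DYSF, and lies close to them for SLCO4A1-AS1 and for the median of the hypoxia list.

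Likeness of pattern was measured as the root mean square difference between 2 genes, each centred on its own mean over the 11 arrays. By this measure the 6 genes fell near one another in part. DYSF was the nearest of all 14885 other genes to PAEP (0.49), and PAEP the second nearest to DYSF. DEPP1 had rank 4 for PAEP (0.63). HES2 had rank 7 for SLCO4A1-AS1 (0.43) and rank 5 for NAT16 (0.56). PAEP and SLCO4A1-AS1 were the least alike pair, at 1.04, where the median distance of all genes from SLCO4A1-AS1 was 1.15. The measure takes in the PLX4720 and vehicle arrays by which the genes were chosen, so a low level under PLX4720 was shared by choice and these ranks are a description.

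The nearest genes outside the 6 included known hypoxia-induced genes. For PAEP, DEPP1 and DYSF these neighbours in pattern were ZP1, a zona pellucida protein, and TIE1, an endothelial receptor tyrosine kinase, together with NDRG1 for DEPP1 (0.57). TIE1 averaged 6.81 in COMBO, 6.07 in PLX4720, 9.05 in bevacizumab and 8.36 in vehicle tumors, and was detected on 1 of 3 PLX4720 arrays. For NAT16 they were TMEM74B (0.40), MMP10 (0.42), a secreted matrix metalloproteinase, and NDRG1 (0.53). For HES2 they were MMP10 (0.29), ENO2 (0.35), the neuronal enolase, and VLDLR (0.35), a lipoprotein receptor. For SLCO4A1-AS1 they were ALDOC (0.32), an aldolase, NRN1 (0.32) and UPK1A (0.35). Of these 10 genes NDRG1, ENO2 and ALDOC stand on the hypoxia-induced list used here. The 6 genes were thus not on that list but had some of its members among their nearest genes.

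**Figure D4:**
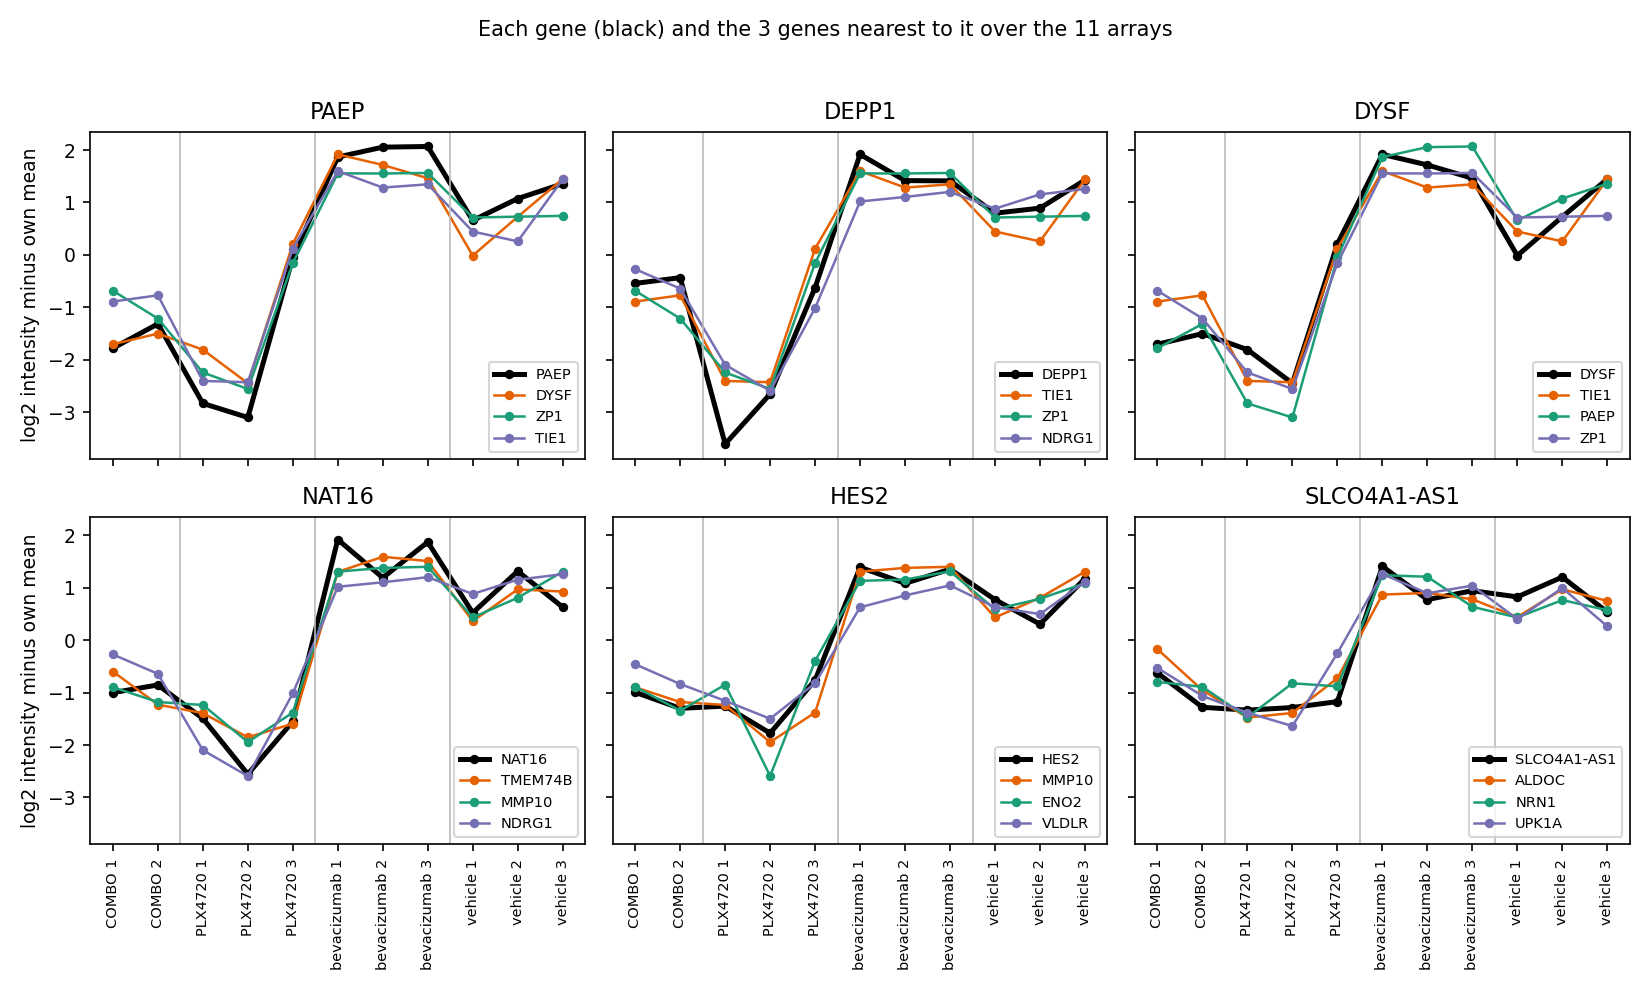
Log2 intensity minus the gene's own mean on each of the 11 arrays, for each of the 6 genes (black) and the 3 genes nearest to it (colours), in the order COMBO, PLX4720, bevacizumab, vehicle. Every gene drawn lies below its own mean on the COMBO and PLX4720 arrays, apart from DYSF and TIE1 on PLX4720 3, where they reach 0.21 and 0.12.

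The hypoxia-induced genes themselves were mostly lower under PLX4720. Of 31 measured, 16 were called lower in PLX4720 than in vehicle tumors (limma) and 0 higher, where 0.853% and 1.44% of all genes were called lower and higher. The median difference was -1.21, against 0.06 over all genes, and 30 of 31 were negative. ADM, which encodes the vasodilator peptide adrenomedullin, averaged 10.34 in PLX4720 and 13.66 in vehicle tumors (-3.32 ± 0.31, adjusted p = 0.00121). NDRG1 averaged 11.89 and 14.89 in the same arms (-3.0 ± 0.34, adjusted p = 0.00261). HILPDA, a lipid droplet protein, differed by -2.47 ± 0.28 (adjusted p = 0.00261) and BNIP3, a mitophagy receptor, by -1.999 ± 0.26 (adjusted p = 0.00432). With 1 array left out the count was 15 to 17 without PLX4720 2, PLX4720 3 or bevacizumab 1 and 5 to 10 without any other, lowest without vehicle 2, while the median stayed between -1.30 and -1.13.

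In COMBO against bevacizumab 1 of the 31 was called lower (HILPDA, -1.89 ± 0.31, adjusted p = 0.03) and 0 higher, where 0.128% and 0.235% of all genes were. The median was -0.94, against 0.00 over all genes, and 30 of 31 were again negative. Without PLX4720 3, 6 were called. HILPDA lost its call without COMBO 1, COMBO 2, bevacizumab 2, bevacizumab 3 or vehicle 2 (highest adjusted p = 0.37). ADM (-1.37 ± 0.35, adjusted p = 0.18) and NDRG1 (-1.57 ± 0.38, adjusted p = 0.159) were not called there. On bevacizumab 1, 2 and 3 the list had medians of -0.08, 0.18 and 0.09 relative to the vehicle mean.

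Of the families and gene groups known for the 6 genes, the Notch and FOXO lists held called genes. Of 8 other lipocalin genes measured, 0 were called in either comparison (limma), and their median difference in PLX4720 against vehicle was -0.13, against 0.06 over all genes. At an unadjusted p below 0.05, 2 were higher and 1 lower in that comparison, and 0 were higher and 4 lower in COMBO against bevacizumab. Without PLX4720 3, 3 of the 8 were called lower in COMBO than in bevacizumab tumors. Of 17 decidual and progesterone-responsive genes 0 were called in either comparison, with a median of 0.30 in PLX4720 against vehicle and 3 higher and 1 lower at an unadjusted p below 0.05. The probe of PGR, the progesterone receptor, was not detected on any array. Of 16 genes of ferlins and membrane repair, 12 N-acetyltransferases and 8 organic anion transporters, 0 were called in either comparison, with medians of -0.02, -0.03 and 0.17 in PLX4720 against vehicle. At an unadjusted p below 0.05 in that comparison these 3 lists had 1, 2 and 5 genes. Without PLX4720 3, 1 decidual gene and 1 organic anion transporter were called in each direction. A call that was not made does not show that these genes stayed level, and no difference between them and the 6 genes was tested.

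Among 31 other genes of Notch signaling and the HES and HEY families, 1 was called higher and 1 lower in PLX4720 than in vehicle tumors. TLE2, a corepressor, was at least 2.22-fold higher (adjusted p = 0.00673, limma). RBPJ, the DNA-binding partner of Notch, averaged 8.39 in PLX4720 and 10.57 in vehicle tumors (-2.19 ± 0.50, adjusted p = 0.0496), and kept its call only without PLX4720 2 when 1 array at a time was left out (highest adjusted p = 0.195). HES1, the best known Notch target, did not pass the test (0.66 ± 0.27, adjusted p = 0.261). In COMBO against bevacizumab 0 of the 31 were called (2 higher and 1 lower at an unadjusted p below 0.05).

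Of 24 FOXO target genes 3 were called lower in PLX4720 than in vehicle tumors and 0 higher, with a median of 0.12. CCNG2, an atypical cyclin, differed by -1.44 ± 0.24 (adjusted p = 0.0151, limma), IRS2, an insulin receptor adaptor, by -1.28 ± 0.26 (adjusted p = 0.0344) and CITED2, a transcriptional coregulator that hypoxia also induces, by -1.60 ± 0.35 (adjusted p = 0.0436). All 3 lost their calls without vehicle 1, vehicle 2 or vehicle 3 (highest adjusted p 0.0789, 0.158 and 0.195). IRS2 lost it also without bevacizumab 3, COMBO 1 or COMBO 2, and CITED2 without PLX4720 1, PLX4720 3, bevacizumab 2 or bevacizumab 3. Without PLX4720 3, 2 of the 24 were called higher and 2 lower. FOXO1 read 1.10 ± 0.32 higher (adjusted p = 0.118) and FOXO3 0.69 lower in PLX4720 tumors (-0.69 ± 0.31, adjusted p = 0.306), and neither passed the test. With 1 array left out FOXO1 was not called in 10 of 11 fits and was called higher in the remaining fit (adjusted p = 0.00545). In COMBO against bevacizumab 0 of the 24 were called (3 higher and 3 lower at an unadjusted p below 0.05).

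ERK output genes lie downstream of BRAF. Of 20 measured, SPRY4 was called higher (1.42 ± 0.29, adjusted p = 0.035) and DUSP4 lower (-4.21 ± 0.96, adjusted p = 0.0492) in PLX4720 than in vehicle tumors (limma), with a list median of -0.04. With 1 array left out SPRY4 kept its call only without PLX4720 2, PLX4720 3 or bevacizumab 1, and DUSP4 only without PLX4720 2 (highest adjusted p 0.164 and 0.198). Without PLX4720 3, 4 of the 20 were called higher and 1 lower. DUSP6, a phosphatase that ERK induces, differed by 0.11 ± 0.25 (adjusted p = 0.877). Of 14 pigment and MITF target genes, OCA2, which sets melanosome pH, was called lower in both comparisons. It was at least 1.64-fold lower in PLX4720 than in vehicle tumors (adjusted p = 0.0316) and at least 3.16-fold lower in COMBO than in bevacizumab tumors (adjusted p = 0.0119). The first call was lost without any 1 vehicle or COMBO array, PLX4720 1 or bevacizumab 3 (highest adjusted p = 0.161), and the second without COMBO 1, COMBO 2 or bevacizumab 3 (highest adjusted p = 0.166). MITF read 0.72 ± 0.32 higher in PLX4720 tumors (adjusted p = 0.309) and did not pass the test.

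Genes next to the 6 in the genome were looked up on both sides. SLCO4A1, which overlaps SLCO4A1-AS1, averaged 10.25 in PLX4720 and 11.43 in vehicle tumors (-1.18 ± 0.39, adjusted p = 0.161, limma). Its difference in COMBO against bevacizumab was -0.53 ± 0.43 (adjusted p = 0.883). The protein-coding partner therefore did not pass the test in either comparison with all arrays. With 1 array left out, 10 of the 11 fits did not call it in PLX4720 against vehicle. The remaining fit called it lower (adjusted p = 0.00604, limma). RASSF4, a RAS association domain protein whose gene contains DEPP1, averaged 5.67 in COMBO, 5.33 in PLX4720, 6.97 in bevacizumab and 6.02 in vehicle tumors, and was not called either (adjusted p = 0.354 for PLX4720 against vehicle and 0.266 for COMBO against bevacizumab).

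VGF, a neuropeptide precursor gene beside NAT16, averaged 14.36 in PLX4720 and 15.45 in vehicle tumors, a difference of -1.09 ± 0.24 that was called (adjusted p = 0.0421, limma). With 1 array left out the call held only without PLX4720 3 or bevacizumab 1 (highest adjusted p = 0.189). Next to PAEP lies OBP2A, another lipocalin gene. It averaged 5.33 in COMBO (0 of 2 detected) and 7.30 in bevacizumab tumors (adjusted p = 0.065), and its difference in PLX4720 against vehicle was -0.46 ± 0.33 (adjusted p = 0.556). LCN1, a lipocalin of tears encoded in the same cluster and picked out here after its values were seen, averaged 5.85 in COMBO and 9.74 in bevacizumab tumors (-3.89 ± 0.88, adjusted p = 0.117), and 7.02 in PLX4720 and 7.98 in vehicle tumors (-0.97 ± 0.79, adjusted p = 0.605). Without PLX4720 3 both were called lower in COMBO than in bevacizumab tumors, at adjusted p = 0.0079 for OBP2A and 0.00655 for LCN1, and LCN1 was also called lower in PLX4720 than in vehicle tumors (-2.06, adjusted p = 0.041). OBP2A was called lower in COMBO without PLX4720 2 as well (adjusted p = 0.0313). ESPN, beside HES2, averaged 7.14 in COMBO and 9.02 in bevacizumab tumors (adjusted p = 0.151). The remaining neighbours CAMSAP1, CXCL12, ZNF638, CYP26B1, MOGAT3, ACOT7 and CABLES2 were not called in PLX4720 against vehicle, with adjusted p between 0.256 and 0.997.

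Several genes used as markers of other cells differed between the arms. On these human probes, RNA of the A375 cells and mouse RNA that binds a probe cannot be told apart. The values therefore do not show that the number of such cells changed. Of 8 fibroblast markers measured, 6 were called higher in PLX4720 than in vehicle tumors, with a median difference of 2.56, and 5 were called higher in COMBO than in bevacizumab tumors, with a median of 3.27. With 1 array left out these counts were 3 to 6 and 0 to 6, lowest at 3 without PLX4720 1, vehicle 2 or vehicle 3 in PLX4720 against vehicle and at 0 without COMBO 2 in COMBO against bevacizumab. Their summed signals ran over 10204 to 21493 in COMBO, 19409 to 40542 in PLX4720, 2797 to 5089 in bevacizumab and 4480 to 7737 in vehicle tumors. COL3A1, a fibrillar collagen, averaged 11.73 in COMBO, 13.02 in PLX4720, 5.49 in bevacizumab and 8.02 in vehicle tumors. PDGFRA and PDGFRB, also on that list, were called in none of the 11 fits with 1 array left out, in either comparison. In those fits PDGFRA differed by 0.23 to 1.57 in PLX4720 against vehicle and by -0.99 to -0.29 in COMBO against bevacizumab. Whether the source of these marker signals had a part in the levels of the 6 genes was not tested. Among 3 leukocyte markers AIF1 was called higher in PLX4720 than in vehicle tumors (1.90 ± 0.31, adjusted p = 0.0135, limma), a call lost without vehicle 2 or vehicle 3 (highest adjusted p = 0.0805). The other 2, CD68 (-1.13 ± 0.36, adjusted p = 0.152) and CD14 (-0.32 ± 0.31, adjusted p = 0.674), were not called, and the 3 markers had medians of -0.17, -0.30 and -0.49 on PLX4720 1, 2 and 3 relative to the vehicle mean. Of 8 skeletal muscle markers, which bear on DYSF, 3 had a probe detected on any array and 0 of them were detected on all arrays of any arm, with summed signals of 414 to 437 in COMBO, 406 to 467 in PLX4720, 400 to 467 in bevacizumab and 367 to 525 in vehicle tumors. Genes known to rise with slow tissue handling had a median of 1.34 on PLX4720 2 and between -0.36 and 0.26 on the other arrays, relative to the vehicle mean, and 1 of 12, ATF3, was called lower in PLX4720 than in vehicle tumors (-1.48 ± 0.34, adjusted p = 0.0492), a call kept only without PLX4720 2 when 1 array was left out (highest adjusted p = 0.213). Their part in the results was not tested.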

How the data were processed

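Total RNA from 11 tumors was biotin-labelled and read on Illumina HumanHT-12 v4 bead arrays. The deposited main table gives an intensity for each probe, before normalization, together with its detection p-value. A further table holds the authors' normalized intensity after a cubic spline (GenomeStudio 2011.01). Sample titles gave arms and replicate numbers, and the replicates are biological by the study's methods.

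Intensities were corrected with normexp, with control moments taken from detection p-values, given an offset of 16, transformed to log2 and quantile normalized (limma 3.58.1, R 4.3.3). Probes with a detection p-value below 0.05 on at least 1 array were kept, and the probe with the largest mean stood for a gene. Of 47323 probes, 30113 had 1 symbol, 8 several and 17202 none. A linear model of the 4 arms was fitted to 14886 genes with eBayes, and an adjusted p (Benjamini-Hochberg) below 0.05 made a call. The script was tested on simulated data. Intervals are 95%. The number of arrays limits the precision.

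Named were the 6 genes with all probes, the 3 genes most alike each, the nearest gene on each side, up to 4 called genes of each list with the smallest p, and MITF, FOXO1, FOXO3, PGR, HES1, MYOF, SLCO4A1, NDRG1, ADM and DUSP6. Members and lists were chosen with earlier results of these data known. Epidermis markers (1 measured) and endothelial markers (2 measured) gave 0 calls. Alternatives covered offset, background, normalization, filter, probe choice, arrays used, weights, replicate block, left-out arrays and the limits of the methods (log2 difference of 1, p below 0.01). Tables and figures used Python 3.11.15, pandas 2.3.3 and matplotlib 3.10.9.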

Additional observations from a re-analysis of the deposited data

How the results depend on the processing

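In PLX4720 against vehicle 342 genes were called, in COMBO against bevacizumab 54, in COMBO against vehicle 26 (22 higher, 4 lower), in COMBO against PLX4720 1 and in bevacizumab against vehicle 0. The same 5 counts, in this order, moved by over 1.5 times as follows. With only the 2 arms compared they were 45, 107, 246 and 0 for the first 4. With array weights they were 863, 402, 0 and 36 for COMBO against bevacizumab, COMBO against vehicle, COMBO against PLX4720 and bevacizumab against vehicle. At the limits of the methods they were 711, 352, 230, 171 and 27. Without PLX4720 3 and bevacizumab 1 together, an alternative chosen after seeing the data, they were 1247, 97, 68 and 2 for the first 4. COMBO against vehicle gave 16 without background correction (15 higher, 1 lower), 13 in the authors' cubic spline normalized table (13 higher, 0 lower), 16 with median scaling and 8 without a filter. Leaving out 1 array at a time gave 59 to 840, 5 to 142, 1 to 72, 0 to 243 and 0 to 0. Same-numbered arrays did not deviate together (correlations of -0.47 to 0.27), so the numbers were not taken to pair tumors. With the replicate block the counts were 190, 25, 7 and 0 for the first 4. Of differently numbered arrays, PLX4720 3 and bevacizumab 1 deviated together (0.63), for a reason that was not tested.

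All 6 genes kept a negative difference in PLX4720 against vehicle, COMBO against vehicle and COMBO against bevacizumab under all 24 settings. In COMBO against bevacizumab, leaving out either COMBO array or bevacizumab 3 ended the calls of NAT16, HES2 and SLCO4A1-AS1 (adjusted p up to 0.181, 0.189 and 0.261), as did leaving out bevacizumab 1 for NAT16. The block ended those of NAT16 (0.0753) and SLCO4A1-AS1 (0.0605), and the fit of the 2 arms alone that of SLCO4A1-AS1 (0.0502). The cause was not tested. Without background correction HES2 and NAT16, the dimmest of the 6, differed by -0.98 and -1.49 in PLX4720 against vehicle. The mean of both HES2 probes gave -1.37. With median scaling the median of all genes was 0.14 in that comparison and -0.23 in COMBO against PLX4720, against 0.06 and -0.07 with quantiles. Dim signal limits HES2 and NAT16 under PLX4720, where the probes were at or near background. DEPP1 on PLX4720 1 and DYSF on PLX4720 2 were near background as well, with detection p-values of 0.031 and 0.026.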
